A study of Homo sapiens with 15 samples.

Results

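Glycolysis and pyruvate handling was followed through 34 genes while H1 cells, a line of human embryonic stem cells, were differentiated towards the heart. The genes encode glucose transporters, every enzyme step from hexokinase to pyruvate kinase, lactate dehydrogenases and lactate exporters. Others encode proteins that import pyruvate into mitochondria, subunits of the enzyme that oxidises it, and kinases that switch that enzyme off. They were taken by gene symbol from the 60605 genes of the deposited table, and all 34 were present. An FPKM (fragments per kilobase of exon, scaled to the total count of the library) of at least 1 in at least 1 library was reached by 33 of them. PGAM2, the muscle phosphoglycerate mutase, had an FPKM of 0.00 in all 15 libraries and was not tested. With the settings of the read counting not given, absent RNA and reads left uncounted cannot be told apart for it.

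Bulk RNA sequencing gave 15 libraries, all of wild-type H1 cells. All cells were first driven to mesendoderm with CHIR99021, an activator of WNT signalling, with insulin added afterwards, and the libraries of days 0, 1 and 2 belong to every arm. From day 2 NP-ctrl cells (not passaged) stayed in their wells with no further inducer, NP-IWP2 cells stayed in their wells and received IWP2, which blocks WNT secretion, and passaged cells were lifted with EDTA, diluted and replated in new wells without a WNT inhibitor, with the ROCK inhibitor Y27632 at replating. Each arm has 1 library on each of days 3, 5, 7 and 10. Passaging therefore combines detachment, replating, dilution to a lower cell density with more medium per cell, and exposure to Y27632, and these cannot be told apart. H1 is 1 cell line, the course was sampled once, and no value below has a culture replicate.

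Glycolysis splits glucose into pyruvate and yields a little ATP without oxygen. Pyruvate is then either reduced to lactate by lactate dehydrogenase and exported, or carried into mitochondria and oxidised by the pyruvate dehydrogenase complex, which pyruvate dehydrogenase kinases switch off. Pluripotent stem cells are known for a high rate of glycolysis with lactate release, and cardiomyocytes for oxidative metabolism. Many steps have alternative isozymes encoded by separate genes, such as ENO1, the widely used enolase, and ENO3, the enolase of striated muscle.

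The lowest total count was 13254723 (NP-ctrl, day 7) and the highest 20250115 (day 2). The 34 genes took between 0.586% of all counts, in NP-ctrl on day 10, and 2.04%, on day 2. The share of counts from mitochondrial genes was 3.71% to 6.14% in 13 libraries, 1.53% in passaged cells on day 3 and 10.3% in passaged cells on day 10. The summed FPKM of 6 cardiomyocyte markers was at most 1.68 on days 0 to 2, and its highest value was 560 (NP-ctrl, day 7), 2058 (NP-IWP2, day 7) and 3308 (passaged cells) (day 10). The summed FPKM of 6 liver and yolk sac endoderm markers reached 4121 (NP-ctrl), 1214 (NP-IWP2) and 20.8 (passaged cells), and that of 5 fibroblast markers reached 4035, 1130 and 405. The arms thus differed in the cells they held, and in these bulk samples fewer cells of a type and less RNA per cell cannot be told apart. Of 5 skeletal muscle markers, CKM and ACTA1, which the heart also expresses, passed an FPKM of 1 in passaged cells, while MYOD1 was at 0 in all passaged libraries and MYOG was at or below 0.17.

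The summed FPKM of the 34 genes was highest on day 2, and the arms separated after day 5. It was 3256, 3536 and 4737 on days 0, 1 and 2. On days 3, 5, 7 and 10 it was 2600, 1546, 1271 and 1303 (NP-ctrl), 2186, 1618, 1866 and 1692 (NP-IWP2) and 2187, 1687, 2412 and 2172 (passaged cells). The 3 arms lay within 1.19-fold of each other on days 3 and 5. On day 7 the passaged library was 1.897-fold above NP-ctrl (95% counting interval 1.88 to 1.92) and on day 10 it was 1.67-fold above (1.65 to 1.68), with NP-IWP2 between them on both days. GAPDH, which the study used as the reference gene of its quantitative PCR, was the most abundant member in every library. Without GAPDH the passaged library was 0.97-fold NP-ctrl on day 3, 0.98-fold on day 5, 1.70-fold on day 7 and 1.53-fold on day 10. Scaling to TPM, in which the FPKM of each library sum to the same total, shifted passaged against NP-ctrl by 0.28 on the log2 scale on day 3 and by -0.29 on day 10, and TMM scaling, used in the tests below, shifted day 10 by 0.18. The ratio on day 10 was 1.37 with TPM and 1.89 with TMM, and that on day 3 was 0.84 with FPKM, 1.02 with TPM and 0.79 with TMM, so that no direction is given for day 3.

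**Figure D1:**
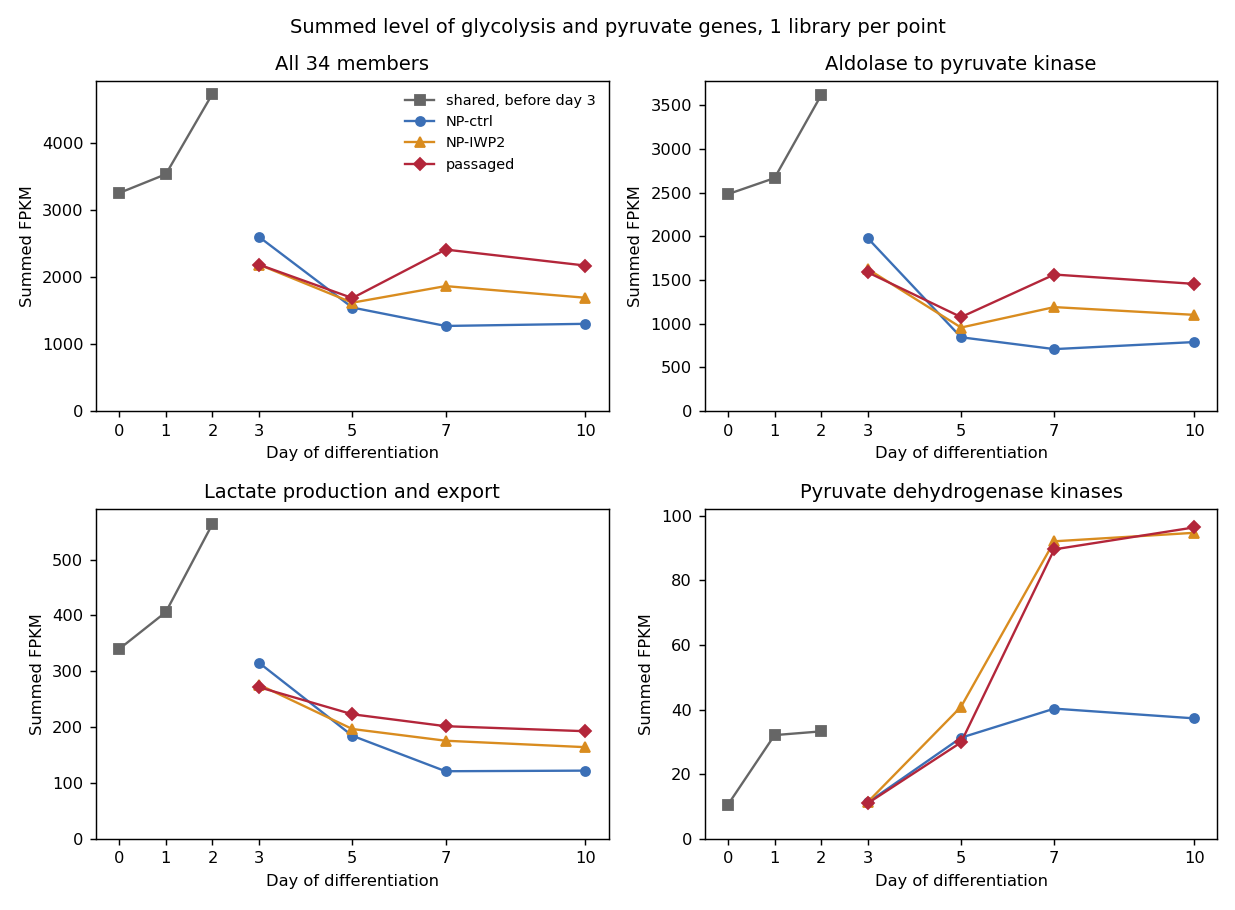
Summed FPKM of all 34 genes and of 3 of their steps against the day of differentiation, with 1 library per point, grey squares for the shared days and 1 colour per arm, and 95% counting intervals that are mostly smaller than the points. All 34 genes together peak on day 2 at 4737, and on days 7 and 10 the passaged libraries (2412 and 2172) lie above NP-IWP2 and NP-ctrl. The pyruvate dehydrogenase kinases PDK1, PDK2 and PDK3, without PDK4, are at 96.4 in passaged and 94.7 in NP-IWP2 cells and at 37.3 in NP-ctrl on day 10.

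The day 0 to day 2 interval, before the arms separate, was compared as single libraries with no test. A difference of at least 1 in log2(FPKM + 1) was taken as a change in level. The pseudocount of 1 understates the change of low genes. By that measure 7 members were higher on day 2 than on day 0, where 6.57% of the 21206 genes above the filter were, and 0 members were lower, where 5.17% of the genes were. The median difference over the 33 members was 0.42, against 0.01 over all genes. With TPM 11 members were higher and 1 (MPC1) lower, where 3056 and 1634 of the 21206 genes were. With a pseudocount of 0.1 the counts were 8 higher and 1 (MPC1) lower, where 3551 and 2280 genes were, so the background share depends on the pseudocount. SLC16A3, the lactate exporter MCT4, was 10.1-fold higher (9.16 to 11.2), and PDK1, a kinase that inactivates pyruvate dehydrogenase, was 9.31-fold higher (8.61 to 10.1). PFKFB4, which makes or breaks down the allosteric activator of phosphofructokinase, was 4.44-fold higher (3.95 to 5.00). PGK1, the phosphoglycerate kinase that makes the first ATP of the pathway, was 3.38-fold higher, LDHA, the lactate dehydrogenase subunit associated with lactate production, 3.26-fold, PKM, the pyruvate kinase, 3.06-fold, and ALDOC, the brain-type aldolase, 2.71-fold. GAPDH itself was 1.11-fold higher, and MPC1, 1 of the pair of proteins that form the mitochondrial pyruvate carrier, was 2.30-fold lower (1.78 to 2.98).

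LDHA and PGK1 are textbook targets of the hypoxia-inducible factor HIF, whose core DNA motif reads ACGTG or GCGTG. Their promoters are shown as examples of such targets that were over 3-fold higher on day 2. PDK1, SLC16A3, PFKFB4 and PKM were over 3-fold higher too, and their promoters are not printed. The sequences are the 250 bases before the annotated start, from RefSeq on GRCh38.p14, written 5′ to 3′ on the strand of the gene, with capitals for the motif on either strand.
LDHA, chr11:18394313-18394562, plus strand: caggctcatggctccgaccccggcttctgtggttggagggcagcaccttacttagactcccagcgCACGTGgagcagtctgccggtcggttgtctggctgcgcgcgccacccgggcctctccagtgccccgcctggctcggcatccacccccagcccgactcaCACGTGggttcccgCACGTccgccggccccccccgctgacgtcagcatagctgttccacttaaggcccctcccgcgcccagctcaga
PGK1, chrX:78103998-78104247, plus strand: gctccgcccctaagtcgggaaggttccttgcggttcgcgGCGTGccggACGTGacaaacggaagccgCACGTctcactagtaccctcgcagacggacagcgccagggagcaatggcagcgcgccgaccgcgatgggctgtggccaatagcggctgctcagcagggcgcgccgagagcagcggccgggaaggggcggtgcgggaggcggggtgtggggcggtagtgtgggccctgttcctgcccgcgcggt
The LDHA window held 5 matches, of which 4 come from a pair of CACGTG boxes that read the same on both strands and so count once in each direction, and the PGK1 window held 3. Promoters were found for 30 of the 34 members, all but SLC2A3, SLC2A4, PFKFB2 and SLC16A1. At least 1 match lay in 18 of these 30 (60.0%), against 43.2% of all 35116 promoter windows of that length. The E-box CACGTG lay in 4 of the 30 (ALDOC, GAPDH, LDHA and PDHB), against 6.34% of all windows. Among the other members called higher on day 2, the ALDOC window held 5 matches and the PFKFB4 window 1. The PKM, PDK1 and SLC16A3 windows held no match, which says only that these letters are not in those 250 bases. Whether HIF had a part in the day 2 levels was not tested.

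Between day 2 and day 3 the levels dropped in all 3 arms, a comparison added after the values were seen. By the same measure 16 members were lower in NP-ctrl on day 3 than on day 2, where 4.35% of genes were, and 1 (ENO3) was higher, where 4.36% were. In NP-IWP2 16 members were lower, against 2.92% of genes, and 0 were higher, against 6.06%. In passaged cells 15 were lower, against 5.00%, and 3 (PDK2, PFKP and ENO3) were higher, against 6.78%. The 15 genes lower in passaged cells were lower in both other arms too, and include SLC2A1, HK1, HK2, GPI, PGK1, PGAM1, ENO1, PKM, LDHA and PDK1. These 3 comparisons share the day 2 library. LDHA went from an FPKM of 313 on day 2 to 55.6, 46.5 and 37.4 on day 3 in the NP-ctrl, NP-IWP2 and passaged libraries, so the drop was present with and without passaging.

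From day 3 on, counts were tested with edgeR over the 12 libraries of the arms, with p-values adjusted over all 21206 genes and called at an adjusted p under 0.05. The only repetition is over days or over arms of 1 series of cultures, so these p-values measure the spread between such libraries and not between independent differentiations. Between day 3 and day 10, with the arms as repetition, 13 of 33 members changed, against 35.0% of all genes. Of these 6 rose (ENO3, MPC1, PDK1, PDK2, PDK3 and PFKM), against 17.9% of genes, and 7 fell (ALDOC, ENO1, ENO2, LDHA, PFKL, PKM and SLC16A1), against 17.1%. These shares are near the background. ENO1, ENO2, MPC1, PDK1 and PFKL were called without any 1 of the arms. Without NP-IWP2 only these 5 of the 13 were called, without NP-ctrl 9 and without passaged cells 11.

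The slope of each gene over days 3 to 10 was compared between arms, which asks whether arms moved apart with time. Passaged cells differed from NP-ctrl in 8 of 33 members, against 6.15% of all genes. The slope was higher in passaged cells for 7 members, SLC2A4, PDK1, ENO3, HK1, GPI, PDHA1 and PDHB, where 2.52% of genes were, and lower for 1, SLC2A1, where 3.64% were. The median slope difference over the 33 members was 0.20 log2 units per day, against -0.01 over all genes, and 28 of the 33 were above 0. Passaged cells differed from NP-IWP2 in 1 member, SLC2A1, against 1.02% of genes. NP-IWP2 differed from NP-ctrl in 0 members, as in 0% of genes, with 11 members at an unadjusted p under 0.05, and DESeq2 called 2. ENO3 and SLC2A1 kept their call in passaged against NP-ctrl without any 1 day. PDK1 lost its call without day 3, SLC2A4 without day 10, and GPI, HK1, PDHA1 and PDHB without each of the 4 days in turn. Without day as a block 0 of the 8 were called.

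**Figure D2:**
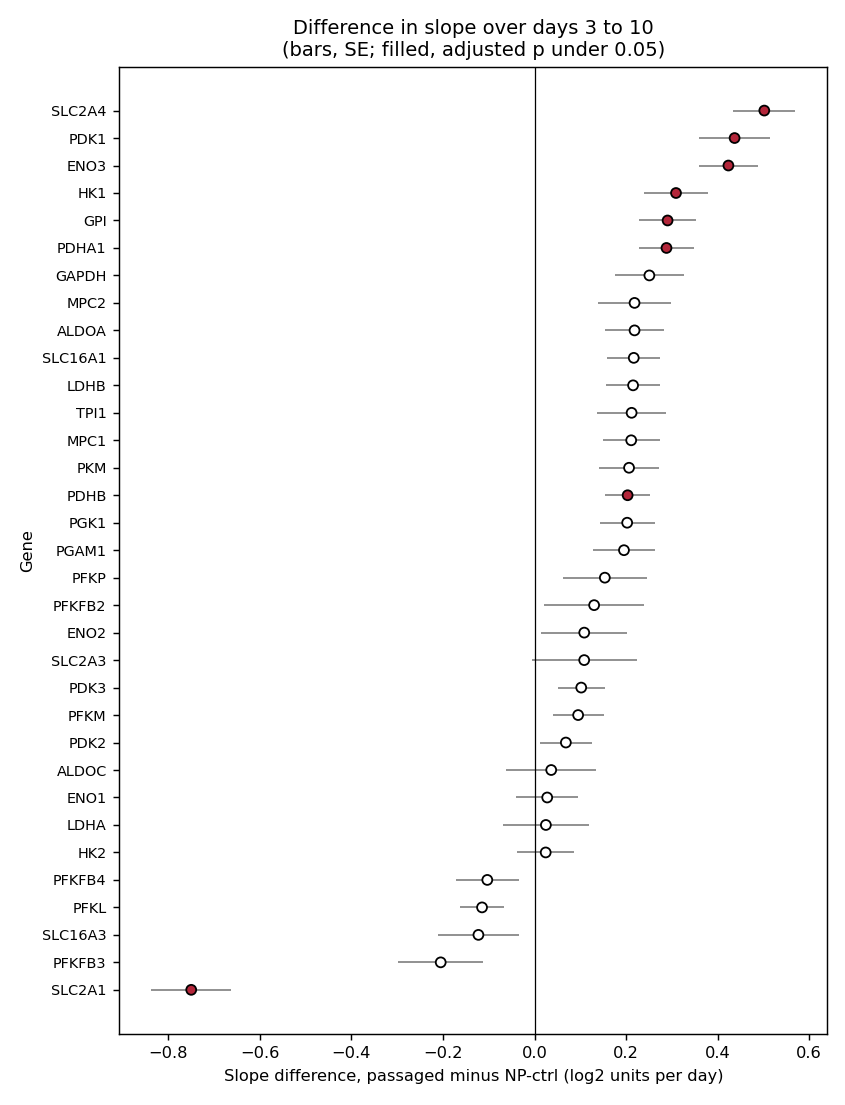
Difference in slope over days 3 to 10 between passaged and NP-ctrl cells for the 33 tested genes, in log2 units per day, with bars for the SE and filled points for an adjusted p under 0.05. SLC2A1 stands alone on the left at -0.75, and SLC2A4, PDK1 and ENO3 lie farthest right at 0.50, 0.44 and 0.42.

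Averaged over days, the arm effect reached the threshold for 1 member. SLC16A3 was lower for passaged than for NP-ctrl cells by a log2 difference of -1.10 (SE 0.26, edgeR adjusted p = 0.0375), where 4.40% of all genes were called in either direction. That call was lost without each of the 4 days in turn. Without day 3, 13 members were called, and the share of all genes called in that fit is not given here. Passaged cells against NP-IWP2 gave 0 members, against 1.33% of genes, with 5 at an unadjusted p under 0.05 and 0 by DESeq2. NP-IWP2 against NP-ctrl gave 0 members, against 0.0189% of genes, with 2 at an unadjusted p under 0.05 and 0 by DESeq2.

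Among the glucose transporters, SLC2A1 and SLC2A4 separated the arms and SLC2A3 was called in no test. SLC2A1 encodes GLUT1, the widely expressed transporter also typical of fetal tissue, SLC2A3 encodes the high-affinity GLUT3, and SLC2A4 encodes GLUT4, the insulin-responsive transporter of muscle and fat. In the table's hg38 coordinates SLC2A1 (ENSG00000117394) lies on chr1:42925353-42958893 and SLC2A4 (ENSG00000181856) lies on chr17:7281718-7288257. SLC2A1 had an FPKM of 41.4, 33.5 and 61.6 on the shared days and of 8.92, 27.6, 116 and 109 (NP-ctrl), 5.25, 20.1, 33.1 and 24.1 (NP-IWP2) and 17.98, 16.8, 12.8 and 5.28 (passaged) on days 3, 5, 7 and 10. On day 10 the NP-ctrl library held 20.7-fold more than the passaged one (95% counting interval 19.0 to 22.6) and 4.52-fold more than NP-IWP2 (4.33 to 4.73). On day 3, in contrast, the passaged library was the highest of the arms, at 17.98. The slope of SLC2A1 was lower for passaged than for NP-ctrl cells by 0.75 log2 units per day (SE 0.087, edgeR adjusted p = 0.00285, a difference of -0.75) and than in NP-IWP2 by 0.52 (SE 0.087, adjusted p = 0.0292, a difference of -0.52). The call against NP-IWP2 was lost without day 3 and without day 7. The NP-ctrl libraries of days 7 and 10, where SLC2A1 was at 116 and 109, were also those with the highest sums of fibroblast markers (3956 and 4035) and, on day 10, of liver and yolk sac markers (4121), and the part of those cells in the SLC2A1 level was not tested.

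SLC2A4 had an FPKM of 1.39, 2.88 and 2.97 on the shared days and of 1.85, 0.93, 1.44 and 1.15 (NP-ctrl), 1.65, 1.10, 2.88 and 4.90 (NP-IWP2) and 1.70, 1.52, 4.14 and 10.0 (passaged) on days 3, 5, 7 and 10. Only the passaged day 10 library reached 10.0, and all 4 NP-ctrl libraries lay below 2. The slope was higher for passaged than for NP-ctrl cells by 0.50 log2 units per day (SE 0.068, edgeR adjusted p = 0.00479). For NP-IWP2 against NP-ctrl the slope difference was 0.35 (SE 0.068, adjusted p = 0.336), and SLC2A4 was 2.04-fold higher in passaged than in NP-IWP2 cells on day 10 (1.78 to 2.35). SLC2A3 had an FPKM of 135, 161 and 143 on the shared days and of 95.2, 273, 79.2 and 59.9 (NP-ctrl), 86.1, 203, 108 and 61.95 (NP-IWP2) and 80.5, 164, 202 and 49.8 (passaged) on days 3, 5, 7 and 10. It was the most abundant of the 3 per length in 13 of 15 libraries, and the exceptions were NP-ctrl on days 7 and 10, where SLC2A1 held 58.9% and 64.1% of their summed FPKM. SLC2A3 was highest on day 5 in NP-ctrl and NP-IWP2 and on day 7 in passaged cells. Among passaged libraries SLC2A4 held 0.84% to 1.89% of the transporter sum on days 3 to 7 and 15.4% on day 10 (14.3% to 16.5%).

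**Figure D3:**
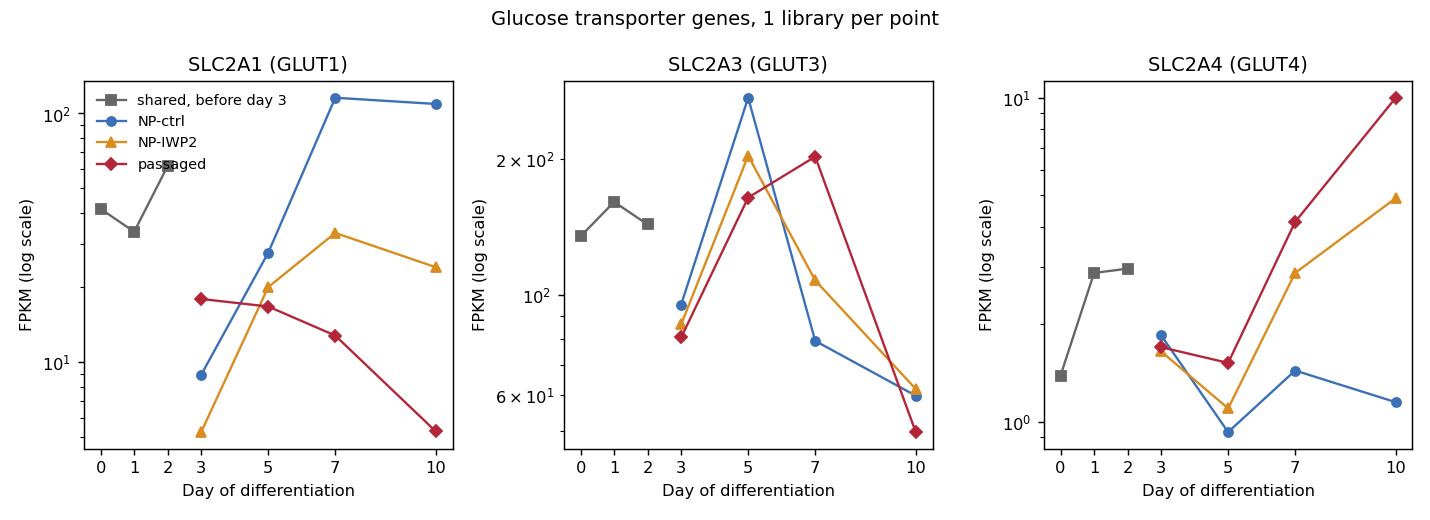
FPKM of SLC2A1, SLC2A3 and SLC2A4 on a log axis against the day of differentiation, 1 library per point, grey for the shared days and 1 colour per arm. On day 10 SLC2A1 is ordered NP-ctrl (109), NP-IWP2 (24.1), passaged (5.28), and SLC2A4 has the opposite order (1.15, 4.90 and 10.0).

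Hexokinase phosphorylates glucose and traps it in the cell. HK1, its general isozyme, had an FPKM of 46.7, 17.9 and 49.7 on the shared days and of 15.3, 12.8, 15.1 and 15.1 (NP-ctrl), 14.8, 17.3, 37.9 and 34.05 (NP-IWP2) and 16.5, 17.1, 55.3 and 52.02 (passaged) on days 3, 5, 7 and 10. HK2, the isozyme linked to insulin response and to tumours, had an FPKM of 22.6, 25.6 and 42.3 on the shared days and of 6.83, 6.42, 10.3 and 7.47 (NP-ctrl), 8.76, 4.93, 8.10 and 6.08 (NP-IWP2) and 11.3, 7.08, 8.98 and 11.2 (passaged) on days 3, 5, 7 and 10. HK1 was flat in NP-ctrl, with 4 libraries between 12.8 and 15.3, and in both other arms the days 7 and 10 libraries stood above 34. The slope of HK1 was higher for passaged than for NP-ctrl cells by 0.31 log2 units per day (SE 0.070, edgeR adjusted p = 0.0307). HK2 had no called difference in any of the tests. HK1 held 41.2% of the HK1 and HK2 sum on day 1, 66.9% in NP-ctrl on day 10 (64.7% to 69.0%), 84.8% in NP-IWP2 (83.7% to 86.0%) and 82.3% in passaged cells (81.3% to 83.3%). The NP-ctrl counting interval does not overlap the other 2 on day 10. These intervals cover counting error in 1 library per arm and not the spread between cultures.

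GPI, the isomerase that turns glucose 6-phosphate into fructose 6-phosphate, had an FPKM of 35.1, 39.00 and 43.7 on the shared days and of 14.1, 9.93, 10.6 and 10.5 (NP-ctrl), 14.5, 11.4, 22.3 and 17.2 (NP-IWP2) and 14.5, 15.1, 31.97 and 33.99 (passaged) on days 3, 5, 7 and 10. The passaged libraries of days 7 and 10 were over 3-fold above NP-ctrl, at 3.01 and 3.25, and the arms were level on day 3. Its slope was higher for passaged than for NP-ctrl cells by 0.29 log2 units per day (SE 0.062, edgeR adjusted p = 0.0242).

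Phosphofructokinase makes the committed step, as tetramers of a liver (PFKL), muscle (PFKM) or platelet (PFKP) subunit. PFKL had an FPKM of 22.8, 27.7 and 43.8 on the shared days and of 29.3, 16.7, 16.6 and 14.9 (NP-ctrl), 30.3, 15.3, 10.7 and 8.92 (NP-IWP2) and 30.4, 15.1, 11.8 and 7.30 (passaged) on days 3, 5, 7 and 10. PFKM had an FPKM of 12.4, 8.97 and 13.9 on the shared days and of 16.2, 17.03, 23.7 and 18.7 (NP-ctrl), 15.5, 21.5, 26.9 and 31.3 (NP-IWP2) and 19.5, 16.8, 27.01 and 27.9 (passaged) on days 3, 5, 7 and 10. PFKP had an FPKM of 12.4, 9.10 and 15.9 on the shared days and of 26.6, 39.04, 34.4 and 28.6 (NP-ctrl), 25.01, 40.96, 39.9 and 25.99 (NP-IWP2) and 40.1, 26.5, 62.7 and 58.3 (passaged) on days 3, 5, 7 and 10. PFKL was the largest of the 3 per length on days 0 to 2 and fell in every arm, by a log2 difference between day 10 and day 3 of -1.50 (SE 0.19, edgeR adjusted p = 0.000226). PFKM rose by 0.67 (SE 0.20, adjusted p = 0.0255), a call lost without NP-IWP2 and without passaged cells. PFKL held 59.5% of the 3 on day 2. On day 10 it held 23.9% (NP-ctrl), 13.5% (NP-IWP2) and 7.81% (passaged cells), with counting intervals of single libraries that do not overlap. On days 5 and 7 PFKP held the largest share in every arm. It held 53.65% and 46.1% (NP-ctrl), 52.6% and 51.5% (NP-IWP2) and 45.4% and 61.8% (passaged cells). On day 10 PFKM was the largest share in NP-IWP2 (47.3%, 46.2% to 48.4%), and PFKP was the largest in passaged cells (62.4%, 61.5% to 63.3%) and in NP-ctrl (46.0%, 44.8% to 47.2%). PFKP was 2.24-fold higher in passaged than in NP-IWP2 cells on day 10 (2.15 to 2.34), and no test called it.

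The 3 bifunctional enzymes that set the level of fructose 2,6-bisphosphate, the activator of phosphofructokinase, had no called difference in the edgeR tests. PFKFB3, the form with the strongest kinase activity, had an FPKM of 12.3, 12.8 and 11.5 on the shared days and of 8.15, 14.9, 22.9 and 12.3 (NP-ctrl), 9.31, 20.6, 19.3 and 13.9 (NP-IWP2) and 18.1, 10.7, 11.98 and 7.74 (passaged) on days 3, 5, 7 and 10. It was highest of the arms in passaged cells on day 3 and lowest in them on day 10. PFKFB2, the heart form, had an FPKM of 3.34, 4.37 and 2.68 on the shared days and of 1.61, 4.36, 2.14 and 2.33 (NP-ctrl), 2.34, 3.74, 1.98 and 2.04 (NP-IWP2) and 1.72, 1.31, 2.16 and 2.61 (passaged) on days 3, 5, 7 and 10. Its passaged day 5 library was the lowest of all 15. PFKFB4 ranged from 2.49 to 6.68 in 14 libraries and was at 14.4 on day 2.

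**Figure D4:**
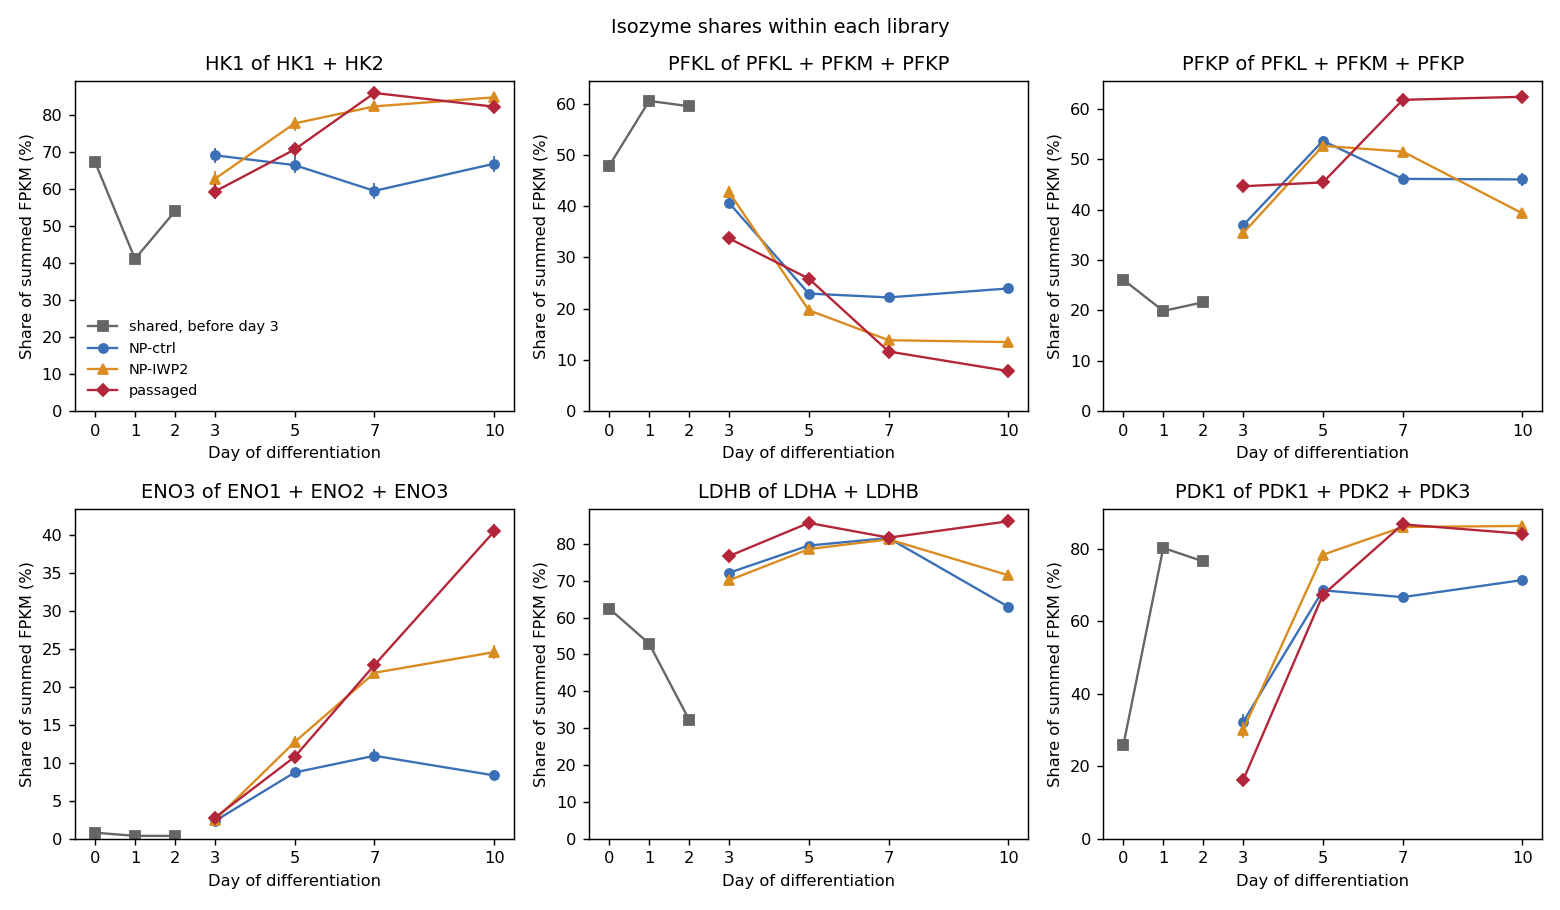
Share of 1 isozyme in the summed FPKM of its set, in percent, against the day of differentiation, for hexokinase, phosphofructokinase (2 panels), enolase, lactate dehydrogenase and the pyruvate dehydrogenase kinases PDK1, PDK2 and PDK3, with 95% counting intervals. On day 10 passaged cells have the lowest PFKL share (7.81%) and the highest ENO3 share (40.5%), and the PDK1 share is 71.3% in NP-ctrl against 86.3% in NP-IWP2 and 84.1% in passaged cells.

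Aldolase cleaves the sugar bisphosphate into triose phosphates. ALDOA, the muscle and general aldolase, had an FPKM of 34.3, 44.7 and 66.5 on the shared days and of 27.4, 13.1, 14.8 and 12.4 (NP-ctrl), 25.7, 12.9, 24.1 and 12.9 (NP-IWP2) and 26.5, 12.8, 30.96 and 24.96 (passaged) on days 3, 5, 7 and 10. ALDOC, the brain form, had an FPKM of 20.7, 23.9 and 56.1 on the shared days and of 22.3, 3.96, 6.35 and 11.3 (NP-ctrl), 18.9, 4.93, 6.56 and 8.24 (NP-IWP2) and 7.97, 2.46, 5.82 and 3.77 (passaged) on days 3, 5, 7 and 10. ALDOC was lowest in passaged cells on each of days 3, 5, 7 and 10, although the direction against NP-ctrl on day 7 turns under TMM, and its mean arm effect against NP-ctrl was -0.92 (SE 0.26, edgeR adjusted p = 0.0707). It fell between day 3 and day 10 by a log2 difference of -1.01 (SE 0.29, adjusted p = 0.0193). That call was lost without NP-IWP2, without NP-ctrl and with arm left out of the fit. ALDOC to ALDOA was 0.91 (NP-ctrl), 0.64 (NP-IWP2) and 0.15 (passaged cells) on day 10.

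TPI1, which interconverts the triose phosphates, had an FPKM of 245, 224 and 380.2 on the shared days and of 188, 83.8, 80.6 and 78.1 (NP-ctrl), 142, 114, 123 and 102 (NP-IWP2) and 197, 84.2, 161 and 168 (passaged) on days 3, 5, 7 and 10. GAPDH, the dehydrogenase of the next step, had an FPKM of 1465, 1427 and 1624 on the shared days and of 1193, 494, 409 and 482 (NP-ctrl), 978, 563, 721 and 712 (NP-IWP2) and 828, 653, 950.0 and 921 (passaged) on days 3, 5, 7 and 10. Its slope difference between passaged and NP-ctrl cells was 0.25 log2 units per day (SE 0.075, edgeR adjusted p = 0.0791). On day 7 GAPDH was 2.32-fold higher in passaged than in NP-ctrl cells (2.28 to 2.37) and on day 10 it was 1.91-fold higher (1.87 to 1.95), whereas on day 3 NP-ctrl was the highest arm. PGK1 ranged from 30.1 to 60.7 in the 12 libraries of the arms and was at 301 on day 2. PGAM1, the phosphoglycerate mutase, had an FPKM of 156, 190.4 and 201 on the shared days and of 81.6, 50.6, 32.7 and 30.6 (NP-ctrl), 67.3, 50.04, 64.3 and 51.6 (NP-IWP2) and 73.7, 66.3, 79.7 and 55.3 (passaged) on days 3, 5, 7 and 10. TPI1, GAPDH, PGK1 and PGAM1 had the same arm order on days 7 and 10, with passaged cells highest and NP-ctrl lowest, apart from PGAM1 on day 10, where the order of passaged and NP-IWP2 cells turns under TPM. No test called any of the 4 genes.

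Enolase makes phosphoenolpyruvate. ENO1 had an FPKM of 369, 495 and 699 on the shared days and of 274, 108, 84.98 and 94.3 (NP-ctrl), 213, 108, 108 and 83.4 (NP-IWP2) and 276, 140.1, 137 and 88.1 (passaged) on days 3, 5, 7 and 10. ENO2, the neuronal form, had an FPKM of 17.6, 17.9 and 30.3 on the shared days and of 8.81, 3.16, 2.52 and 2.45 (NP-ctrl), 10.96, 3.19, 2.30 and 2.05 (NP-IWP2) and 8.37, 3.23, 5.69 and 2.69 (passaged) on days 3, 5, 7 and 10. ENO3, the striated muscle form, had an FPKM of 3.13, 2.00 and 2.76 on the shared days and of 6.75, 10.6, 10.7 and 8.81 (NP-ctrl), 5.66, 16.3, 30.9 and 27.8 (NP-IWP2) and 8.12, 17.3, 42.2 and 61.7 (passaged) on days 3, 5, 7 and 10. ENO1 fell between day 3 and day 10 by a log2 difference of -1.44 (SE 0.22, edgeR adjusted p = 0.000581) and ENO2 by -1.91 (SE 0.32, adjusted p = 0.00104), while ENO3 rose by 1.98 (SE 0.47, adjusted p = 0.0071). The ENO3 rise was not called without NP-IWP2. The slope of ENO3 was higher for passaged than for NP-ctrl cells by 0.42 log2 units per day (SE 0.065, adjusted p = 0.00773). ENO1 was within 1.07-fold between passaged and NP-ctrl cells on day 10, with a direction that turns under TMM, while ENO3 was 7.00-fold higher in passaged cells (6.38 to 7.69) and 3.16-fold higher in NP-IWP2 (2.86 to 3.49). ENO3 to ENO1 was 0.0085 on day 0, and on day 10 it was 0.093 (NP-ctrl), 0.33 (NP-IWP2) and 0.70 (passaged cells). Between passaged and NP-IWP2 cells ENO3 differed 2.22-fold on day 10 (2.10 to 2.34) and had no called slope difference. The promoters of this isozyme pair, which moved in opposite directions, are given in the same way as above, with capitals for the HIF motif.
ENO1, chr1:8878687-8878936, minus strand: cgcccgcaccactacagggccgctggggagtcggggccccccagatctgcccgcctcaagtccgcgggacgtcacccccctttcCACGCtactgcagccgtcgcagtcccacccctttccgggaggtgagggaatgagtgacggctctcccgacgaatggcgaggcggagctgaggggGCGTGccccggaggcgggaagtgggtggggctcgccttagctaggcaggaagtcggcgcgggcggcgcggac
ENO3, chr17:4950302-4950551, plus strand: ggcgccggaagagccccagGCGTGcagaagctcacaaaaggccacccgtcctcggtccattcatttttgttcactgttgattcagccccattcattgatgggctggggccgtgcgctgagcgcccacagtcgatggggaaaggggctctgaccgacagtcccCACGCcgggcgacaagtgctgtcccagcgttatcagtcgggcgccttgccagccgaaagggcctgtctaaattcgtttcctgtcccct
Each window held 2 matches to the motif, and any part of the motif in the levels of the pair was not tested.

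PKM, the pyruvate kinase gene, had an FPKM of 84.2, 111 and 257 on the shared days and of 124, 46.1, 38.1 and 36.3 (NP-ctrl), 117, 52.8, 65.7 and 53.9 (NP-IWP2) and 118, 56.2, 91.3 and 70.96 (passaged) on days 3, 5, 7 and 10. It fell between day 3 and day 10 by a log2 difference of -1.14 (SE 0.28, edgeR adjusted p = 0.00893), a call lost without NP-IWP2 and without NP-ctrl. Its splice forms PKM1 and PKM2 share 1 gene and were not separated by gene counts.

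Lactate dehydrogenase is a tetramer of A and B subunits. LDHA had an FPKM of 95.9, 152 and 313 on the shared days and of 55.5, 18.4, 12.1 and 29.4 (NP-ctrl), 46.5, 20.2, 18.5 and 29.1 (NP-IWP2) and 37.4, 20.02, 21.9 and 17.5 (passaged) on days 3, 5, 7 and 10. LDHB, the subunit typical of heart, had an FPKM of 159.6, 171 and 149 on the shared days and of 144, 71.4, 53.5 and 49.9 (NP-ctrl), 109, 74.1, 79.95 and 73.1 (NP-IWP2) and 123, 119.8, 97.9 and 109 (passaged) on days 3, 5, 7 and 10. LDHA fell between day 3 and day 10 by a log2 difference of -0.81 (SE 0.28, edgeR adjusted p = 0.04), a call lost without NP-IWP2 and without NP-ctrl, and NP-ctrl and NP-IWP2 were higher on day 10 than on day 7. LDHB had a log2 difference of -0.71 (SE 0.28, adjusted p = 0.068). LDHB to LDHA was 1.66 on day 0, 0.48 on day 2 and 1.70 (NP-ctrl), 2.51 (NP-IWP2) and 6.21 (passaged cells) on day 10. The day 7 ratios lay between 4.33 and 4.46 in all 3 arms. LDHB took 86.1% of the pair in passaged cells on day 10 (85.5% to 86.8%), 71.5% in NP-IWP2 (70.5% to 72.5%) and 62.9% in NP-ctrl (61.5% to 64.3%).

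Lactate leaves the cell by SLC16A1 (MCT1, which also imports lactate) and SLC16A3 (MCT4, an exporter of glycolytic cells). SLC16A1 had an FPKM of 81.7, 73.3 and 75.04 on the shared days and of 109, 90.8, 44.2 and 31.3 (NP-ctrl), 114, 97.3, 66.98 and 56.6 (NP-IWP2) and 108, 80.9, 73.9 and 64.2 (passaged) on days 3, 5, 7 and 10. It fell between day 3 and day 10 by a log2 difference of -1.08 (SE 0.27, edgeR adjusted p = 0.00987), a call lost without NP-IWP2 and without NP-ctrl. SLC16A3 had an FPKM of 2.69, 9.17 and 27.2 on the shared days and of 7.01, 3.97, 11.2 and 11.5 (NP-ctrl), 5.79, 5.07, 10.3 and 5.33 (NP-IWP2) and 3.50, 2.28, 7.95 and 2.45 (passaged) on days 3, 5, 7 and 10. It was lowest in passaged cells on each of the 4 days, and on day 10 it was 4.71-fold lower than in NP-ctrl (4.19 to 5.32) and 2.18-fold lower than in NP-IWP2 (1.91 to 2.48). SLC16A3 to SLC16A1 was 0.36 on day 2, and on day 10 it was 0.37 (NP-ctrl), 0.094 (NP-IWP2) and 0.038 (passaged cells).

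Pyruvate enters mitochondria through a carrier of MPC1 and MPC2 and is oxidised by pyruvate dehydrogenase, whose first enzyme is built from PDHA1 and PDHB. MPC1 had an FPKM of 6.90, 4.95 and 3.00 on the shared days and of 3.06, 5.37, 9.37 and 14.8 (NP-ctrl), 2.68, 5.12, 13.4 and 24.3 (NP-IWP2) and 3.21, 8.94, 16.6 and 38.3 (passaged) on days 3, 5, 7 and 10. It rose between day 3 and day 10 by a log2 difference of 3.09 (SE 0.29, edgeR adjusted p = 3.86e-05), in all 3 arms, from 2.68 to 3.21 on day 3 to 14.8 (NP-ctrl), 24.3 (NP-IWP2) and 38.3 (passaged cells) on day 10. MPC2, its partner, ranged from 6.27 to 22.5 and was not called. PDHA1 had an FPKM of 26.8, 30.2 and 25.7 on the shared days and of 20.2, 17.2, 18.2 and 18.8 (NP-ctrl), 20.9, 19.5, 36.2 and 32.1 (NP-IWP2) and 22.9, 22.8, 54.2 and 62.9 (passaged) on days 3, 5, 7 and 10. PDHB had an FPKM of 28.5, 39.03 and 38.9 on the shared days and of 28.7, 19.4, 21.2 and 20.3 (NP-ctrl), 23.7, 19.6, 27.1 and 27.1 (NP-IWP2) and 21.6, 22.1, 30.6 and 34.3 (passaged) on days 3, 5, 7 and 10. NP-ctrl stayed between 17.2 and 20.2 in PDHA1, while the passaged libraries of days 7 and 10 were at 54.2 and 62.9. The slopes were higher for passaged than for NP-ctrl cells by 0.29 log2 units per day for PDHA1 (SE 0.060, adjusted p = 0.0228) and by 0.20 for PDHB (SE 0.049, adjusted p = 0.0385). PDHA1 to PDHB was 0.93 (NP-ctrl), 1.18 (NP-IWP2) and 1.83 (passaged cells) on day 10.

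The kinases that inactivate pyruvate dehydrogenase changed with PDK1 in the lead. PDK1 had an FPKM of 2.73, 25.7 and 25.4 on the shared days and of 3.62, 21.4, 26.8 and 26.6 (NP-ctrl), 3.42, 32.02, 79.2 and 81.7 (NP-IWP2) and 1.78, 20.1, 77.7 and 81.1 (passaged) on days 3, 5, 7 and 10. PDK2, the form spread across most tissues, had an FPKM of 1.43, 1.09 and 2.24 on the shared days and of 4.78, 6.28, 10.6 and 7.41 (NP-ctrl), 4.48, 5.47, 8.86 and 7.84 (NP-IWP2) and 5.78, 6.19, 8.30 and 10.4 (passaged) on days 3, 5, 7 and 10. PDK3 had an FPKM of 6.40, 5.26 and 5.58 on the shared days and of 2.84, 3.58, 2.83 and 3.27 (NP-ctrl), 3.50, 3.39, 4.05 and 5.17 (NP-IWP2) and 3.44, 3.58, 3.60 and 4.93 (passaged) on days 3, 5, 7 and 10. PDK1 rose between day 3 and day 10 by a log2 difference of 4.34 (SE 0.53, edgeR adjusted p = 0.000169), PDK2 by 0.87 (SE 0.19, adjusted p = 0.00452) and PDK3 by 0.53 (SE 0.19, adjusted p = 0.0482). The PDK2 call was lost without NP-IWP2. The PDK3 call held in only 2 of 8 alternatives. It was lost without NP-IWP2, without passaged cells, with limma, with another scaling (median of ratios), with no filter and with arm left out of the fit. The slope of PDK1 was higher for passaged than for NP-ctrl cells by 0.44 log2 units per day (SE 0.078, adjusted p = 0.013). PDK1 was level between passaged and NP-IWP2 cells on day 10, at a ratio of 0.99 (0.97 to 1.01), with both near 3-fold above NP-ctrl, at 3.05 (2.96 to 3.14) and 3.07 (2.98 to 3.17). Its share of the 3 kinases was 25.9% on day 0 and 80.2% on day 1, dropped on day 3 to 32.2% (NP-ctrl), 29.99% (NP-IWP2) and 16.1% (passaged cells), and stood at 71.3%, 86.3% and 84.1% on day 10. PDK4, which is no member and is left out of these shares and of the kinase sum, was at or below 0.08 on days 0 to 3. It reached 10.2 (NP-ctrl), 19.9 (NP-IWP2) and 11.5 (passaged cells) on day 10, above PDK2 in each arm.

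On day 10, 11 members were at least 1 higher in log2(FPKM + 1) in passaged cells than in NP-ctrl, where 5.67% of genes were, and 3 (SLC2A1, SLC16A3 and ALDOC) were lower, where 11.7% were. With TPM 7 members were higher and 5 lower, where 1421 and 5316 of the 21206 genes were. LDHB, TPI1, SLC16A1 and PFKP were then no longer past the threshold, and LDHA and PFKL joined the lower ones. On day 7 the counts were 11 higher, against 4.33%, and 1 lower (SLC2A1), against 8.29%. On day 3 they were 1 higher (PFKFB3), against 5.02%, and 1 lower (ALDOC), against 3.48%. The 11 of day 10 were SLC2A4, ENO3, HK1, PDHA1, GPI, PDK1, MPC1, LDHB, TPI1, SLC16A1 and PFKP. NP-IWP2 against NP-ctrl gave 4 higher on day 10 (SLC2A4, ENO3, HK1 and PDK1), against 3.71%, and 1 lower (SLC2A1), against 5.64%. These comparisons share the NP-ctrl library. Passaged against NP-IWP2 gave 2 higher (ENO3 and PFKP), against 3.07%, and 1 lower (SLC2A1), against 7.01%. With TPM it gave 0 higher and 4 lower (ALDOC, SLC2A1, SLC16A3 and PFKFB3), where 1023 and 3665 of the 21206 genes were, so neither higher call held. The day 10 libraries of passaged, NP-IWP2 and NP-ctrl cells had summed cardiomyocyte markers of 3308, 1365 and 431 and mitochondrial shares of 10.3%, 6.02% and 3.72%, and the part of either in these differences was not tested.

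**Figure D5:**
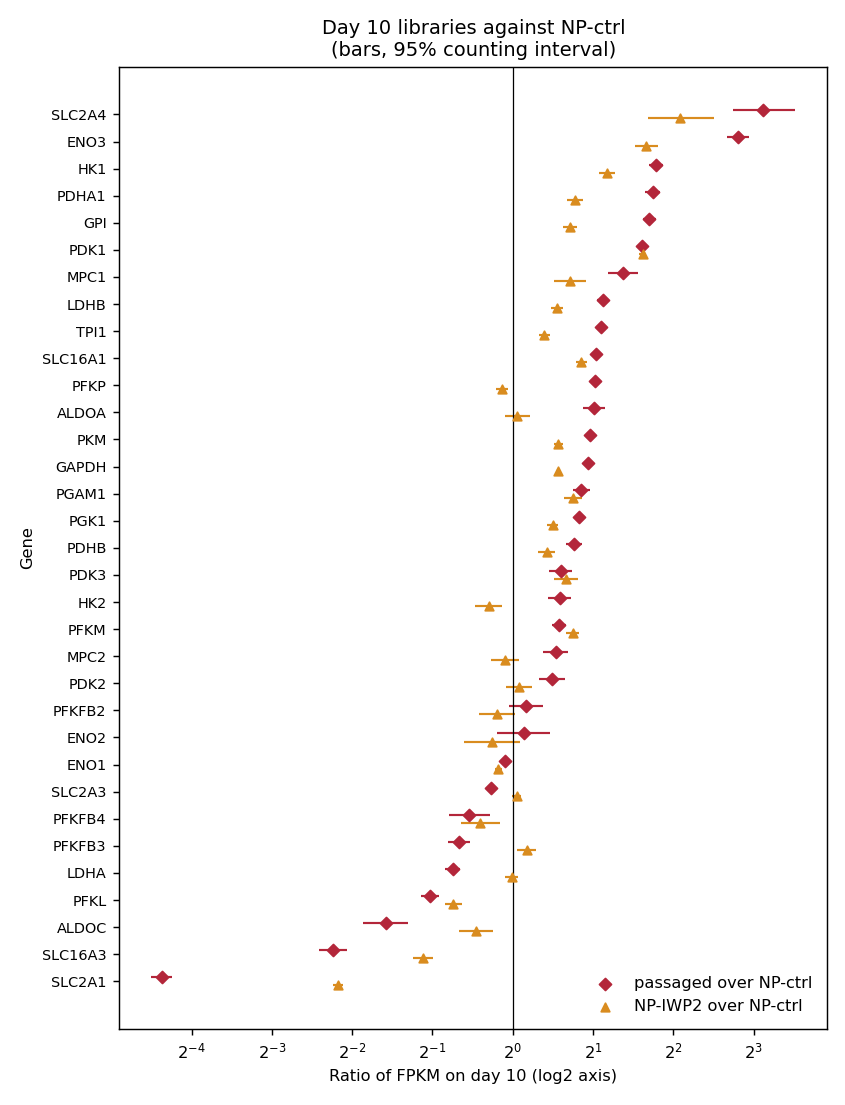
Ratio of FPKM on day 10 to the NP-ctrl library for 33 genes on a log2 axis, red for passaged and orange for NP-IWP2 cells, with 95% counting intervals and 1 library per arm. SLC2A4 (8.68 and 4.25) and ENO3 (7.00 and 3.16) are at the top and SLC2A1 (0.048 and 0.22) is at the bottom in both comparisons, which share the NP-ctrl library.

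Neighbouring pathways were read from lists of other genes. Of 38 other isoforms and pyruvate enzymes, 25 were above the filter. Between day 3 and day 10, 11 of them rose, where 17.9% of all genes did, and 3 fell, where 17.1% did (edgeR, adjusted over all genes). The rise included DLAT and DLD, the other catalytic parts of pyruvate dehydrogenase, by log2 differences of 1.19 (SE 0.34, adjusted p = 0.0194) and 1.01 (SE 0.21, adjusted p = 0.00375). DLD was also higher for passaged than for NP-ctrl cells averaged over days, by 0.74 (SE 0.18, adjusted p = 0.0439), and PC, which turns pyruvate into oxaloacetate, had a slope lower in passaged cells, with a difference of -0.38 log2 units per day (SE 0.063, adjusted p = 0.0101). The liver isoforms SLC2A2 and PKLR stayed at or below an FPKM of 0.65.

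Of 16 genes of glycogen metabolism and the pentose phosphate pathway, 12 changed between day 3 and day 10, where 35.0% of all genes did. They split into 6 that rose and 6 that fell. Among those that fell were PGLS, PGD, RPIA, TKT and TALDO1, enzymes of the pentose phosphate pathway, which makes NADPH and ribose. TKT, the transketolase, fell with a log2 difference of -2.41 (SE 0.23, edgeR adjusted p = 3.95e-05). The 6 that rose were GBE1, GYG1, PYGB, PYGL, PYGM and UGP2, all of glycogen synthesis or breakdown. The slope was higher for passaged than for NP-ctrl cells for 6 of the 16, GYG1, GYS1 and PYGM among them, where it was for 2.52% of all genes, and lower for 0. PYGM, the muscle glycogen phosphorylase, reached 10.2 (NP-ctrl), 22.4 (NP-IWP2) and 44.6 (passaged cells) on day 10, with a slope difference of 0.44 log2 units per day between passaged and NP-ctrl cells (SE 0.089, adjusted p = 0.0206).

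Near-identical gene copies bear on several members. The table held 111 processed pseudogenes named after 14 members, and they took at most 2.48% of the counts of a member and its pseudogenes together, for PGAM1. How reads that match more than 1 copy were counted was not given in the sources used here. A low pseudogene count therefore does not show that a member lost no reads to its copies. SLC2A3 and SLC2A14 are near-identical copies, and SLC2A14 stayed at or below an FPKM of 1.76. The strand setting of the read counting was not given in the sources used here. The library kit named in the study's methods is one for long reads while the tools are for short reads, so comparisons of level between genes, which divide by length, carry that doubt. A ratio between 2 libraries for 1 gene does not depend on length.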

How the data were processed

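Bulk RNA of 15 libraries was sequenced by the study. Per the labels and the study's methods, the authors trimmed reads with Cutadapt 1.9.1, aligned them to hg38 with HISAT2 2.0.1, counted them with HTSeq 0.6.1 and used DESeq2. The annotation release and the strand setting were not given in the sources used here. The deposited table holds raw counts per gene and FPKM, which the authors scaled by exonic length and total count. Recomputing FPKM from the counts gave values within 0.005. Columns of per-sample values not used here numbered 0.

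Groups came from the labels. The 34 genes, the other lists and the tests were chosen with earlier results of these data known. Counts of the 21206 genes that reached an FPKM of 1 in any library were tested with edgeR 4.0.16 in R 4.3.3 (TMM scaling, quasi-likelihood test, Benjamini-Hochberg adjustment over all of them). Arm effects had day as a block, day 10 against day 3 had arm as a factor, and slopes had arm, day and arm by day number. The day numbers pair the arms because each label gives the day of the shared series. limma 3.58.1 on log2(FPKM + 1) and DESeq2 1.42.0 were alternatives. Between single libraries a difference of 1 in log2(FPKM + 1) was called, with no test. The 95% intervals of ratios and shares (exact Clopper-Pearson on counts, or from Poisson counts for sums) cover counting error only, and total counts of 13254723 to 20250115 set their width. An exact sign-flip permutation test over 4 days cannot go below p = 0.125, so none is given. The named genes are all members, with values per library for isozyme sets, transporters and called members, and genes of the other lists. The scripts were tested on simulated data. Figures were drawn with matplotlib 3.10.9. Some genes of the other lists are not reported here.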

Additional observations from a re-analysis of the deposited data

Results flagged for a closer look

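A day that stood far from the other 3 of its arm (Dixon's test) was found in 13 of 102 time courses of 4 days. The courses of PGAM2, at 0.0 throughout, could show none. Chance alone gives about 5% for independent replicates. Days of a course are not replicates, so the 13 are not read as an excess. In NP-ctrl, day 3 was the highest for GPI (FPKM 14.13), PFKL (29.34), ALDOA (27.41), TPI1 (187.77), GAPDH (1193.23), ENO1 (274.25), ENO2 (8.81) and PKM (123.62). Day 5 of NP-ctrl was the highest for SLC2A3 (273.14) and the lowest for HK1 (12.75). In NP-IWP2, ENO2 stood apart on day 3 (10.96) and SLC16A3 on day 7 (10.27), and in passaged cells PDK3 stood apart on day 10 (4.93).

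Slopes over days 3 to 10 differed between passaged and NP-ctrl cells for 8 genes by the edgeR interaction test, in log2 units per day: SLC2A1 at -0.75, SLC2A4 at 0.502, PDK1 at 0.437, ENO3 at 0.424, HK1 at 0.309, GPI at 0.291, PDHA1 at 0.288 and PDHB at 0.203. Between passaged and NP-IWP2 cells the slope of SLC2A1 differed by -0.518.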

How the results depend on the processing

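Members called for the arm effect of passaged against NP-ctrl cells numbered 1, and 8 with DESeq2, 0 with limma, 11 with no filter on low values, 0 from the 2 arms alone, and 0 to 13 when 1 day was left out (13 without day 3, 0 without each other day). For passaged against NP-IWP2 cells the 0 members became 1 with no filter and 0 to 1 with a day left out (1 without day 3). For NP-IWP2 against NP-ctrl the 0 became 1 with no filter and 1 from the 2 arms alone. The 13 members called between day 3 and day 10 became 5 to 17 when an arm was left out, with 5 without NP-IWP2. The 8 slope differences of passaged against NP-ctrl became 14 with DESeq2, 3 with limma, 15 with no filter, 3 from the 2 arms alone and 3 to 4 with a day left out. The slope difference of SLC2A1 against NP-IWP2 (1 member) gave 0 with limma and 0 to 1 with a day left out (0 without day 3 or day 7). The 0 slope differences of NP-IWP2 against NP-ctrl became 2 with DESeq2 and 3 from the 2 arms alone. With no replicate block (day left out of the fit) 0 members were called for the arm effect and 0 for either slope of passaged cells. The share of all genes called under each of these settings is not given here. The counts therefore do not show whether members moved more than other genes did. Of the 23 calls on single members from the edgeR tests, 0 changed sign under the alternative fits. Between single libraries some directions turned with the scaling, among them passaged against NP-ctrl for ALDOC on day 7 and ENO1 on day 10 (TMM) and passaged against NP-IWP2 for PGAM1 on day 10 (TPM). The summed FPKM of passaged over NP-ctrl cells was, on day 3, 0.841, and 1.02 with TPM, 0.79 with TMM, 0.813 without mitochondrial counts, 0.965 without GAPDH and 1.004 for the median member. On day 5 it was 1.09, and 1.06 with TPM, 1.07 with TMM, 0.983 without GAPDH and 1.002 for the median member. On day 7 it was 1.897, and 1.73, 2.12, 1.95, 1.70 and 1.72 under the 5 settings in the order of day 3. On day 10 it was 1.67, and 1.37, 1.89, 1.79, 1.53 and 1.56. The cause of these changes was not tested. With 1 library per arm and day, no culture replicate limits any of them.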

Other observations

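Of 16 hypoxia-response genes outside glycolysis, 14 had a higher FPKM on day 2 than on day 0 and 2 (ADM and EGLN3) a lower one, counted after the values were seen and with 1 library per day. By a difference of at least 1 in log2(FPKM + 1), 10 of the 15 above the filter were higher, where 6.57% of all genes were, and 1 (ADM) was lower, where 5.17% were. The cause of these differences was not tested. DDIT4, an inhibitor of mTOR signalling, had an FPKM of 11.2, 14.2 and 120.2 on days 0, 1 and 2. BNIP3, a mitophagy receptor, had 16.6, 78.95 and 130.4, and P4HA1, a collagen prolyl hydroxylase subunit, had 16.8, 33.3 and 68.8. ADM, which encodes adrenomedullin, had 20.2, 1.19 and 2.34, and CA9, a carbonic anhydrase, had 0.33, 0.37 and 0.64. Of the 15 tested by edgeR, 3 had a called arm effect of passaged against NP-ctrl cells, where 4.40% of all genes did: EGLN3 at 1.39 (SE 0.29, adjusted p = 0.0217), P4HA1 at -0.84 (SE 0.16, adjusted p = 0.0174) and P4HA2 at -1.03 (SE 0.18, adjusted p = 0.011). The slope of NDRG1 differed by -0.33 log2 units per day (SE 0.061, adjusted p = 0.0155). Between day 3 and day 10, 7 rose, where 17.9% of all genes did, and 1 (DDIT4) fell, where 17.1% did.

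Of 15 regulators, 3 had a called arm effect of passaged against NP-ctrl cells, against 4.40% of all genes. PPARGC1A, a coactivator of mitochondrial genes, reached an FPKM of 2.47 (NP-ctrl), 13.8 (NP-IWP2) and 20.2 (passaged cells) on day 10, with an edgeR arm effect of passaged against NP-ctrl of 2.89 (SE 0.45, adjusted p = 0.00626). ESRRA, the estrogen-related receptor alpha, had an arm effect of 0.86 (SE 0.20, adjusted p = 0.0365). MLXIPL, a glucose-responsive transcription factor, had an arm effect of -3.92 (SE 0.77, adjusted p = 0.0183) and was at 0.01 in passaged cells on day 10. In slope, 5 of the 15 were called, against 6.15% of all genes. The slopes of ESRRG and TXNIP were higher for passaged than for NP-ctrl cells, and those of EPAS1, MLXIPL and MYCN were lower. In level, TXNIP had a lower FPKM in passaged than in NP-ctrl cells on each day, from 21.5 against 161 on day 3 to 75.5 against 79.3 on day 10. The day 10 direction turns under TMM, which shifts that comparison by 0.18 on the log2 scale. MYCN was higher in passaged cells on days 3 and 5 (82.9 against 38.7 and 43.2 against 24.2). It was lower on day 10 (3.59 against 13.4). On day 7 MYCN was at 12.2 against 12.9, a direction that turns under TMM, with a shift of 0.16. The slope of MYCN was also lower for passaged cells than for NP-IWP2 by 0.37 log2 units per day (a difference of -0.37, SE 0.066, adjusted p = 0.0358).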
